A study of Sus scrofa with 4 samples.

Results

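Connexins are the membrane proteins of gap junctions, and pannexin 1 is a related protein that forms channels to the outside of the cell. Here 7 of their genes were followed in porcine granulosa cells: GJA1, GJA3, GJA4, GJA5, GJB2 and GJC1, which encode connexins 43, 46, 37, 40, 26 and 45, and PANX1. They were taken by symbol from a table of 29884 rows of read counts. All 7 had a row. The series has 4 libraries from ovarian granulosa cells of antral follicles, the fluid-filled follicles in which these somatic cells surround the oocyte. Follicles had been grouped by flow cytometry of part of their cells into a group rich and a group poor in G0/G1 cells, which have not begun DNA synthesis, called high and low G0/G1 here, with 2 libraries each. No treatment, genotype, breed, age or oxygen level is given for either group, and nothing says that 2 libraries of a group are from different animals. The p-values therefore measure the spread between these samples only, and that spread may be technical.

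Connexins assemble into rings called hemichannels in the membrane of a cell, and those of neighbouring cells dock into a gap junction through which ions, cyclic nucleotides and metabolites pass. In the follicle, gap junctions join granulosa cells to each other and, through fine processes of the cumulus cells, to the oocyte, and cyclic GMP that passes to the oocyte helps to hold it in meiotic arrest. Connexin 43 is the main connexin between granulosa cells and is phosphorylated by several kinases that set its assembly and turnover. Pannexins do not usually dock between cells, and pannexin 1 is known as a channel through which ATP leaves the cell.

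The total count was between 27442850 and 32674921 per library. The unit of level is CPM, which divides each count by the scaled library size. Where no read was counted, the level may still be as high as 0.0941 to 0.105 CPM, depending on the library, by a limit of 3 counts. Intervals and limits here cover counting error only. Granulosa markers were present in every library: all 12 of a list with INHA, FSHR, AMH and FOXL2 were tested, and their summed level was 11737 to 19924 CPM. In all 12 the groups did not overlap, with 8 lower and 4 higher in high G0/G1 libraries. Over all genes tested 56.6% did not overlap, 29.8% with the high libraries below and 26.8% with them above. FSHR, the receptor of follicle-stimulating hormone, had 22.5 and 26.03 CPM in high and 81.5 and 85.8 in low, and INHBB, an inhibin and activin subunit, had 1491 and 557 against 3652 and 3021. Of the 4 higher markers, AMHR2 had 89.9 and 56.6 CPM in high and 30.7 and 26.2 in low. The part of the granulosa markers in the connexin results was not tested. Over the 500 most variable genes, high replicate 1 stood slightly nearer to low replicate 1 (root mean square distance of 2.80 on the log2 scale) than to high replicate 2 (2.90), so values without each library are given where they differ. Low replicate 2 had the highest levels of theca markers (a sum of 500 CPM over 8 genes against 160 to 332 in the other libraries) and of smooth muscle and pericyte markers (267 CPM over 10 genes against 55.5 to 101). The library names of high replicate 2 and low replicate 2 share the letter W, whose meaning is not given, and the same libraries alone held the epithelial keratin KRT5, at 18.9 and 19.0 CPM, with 0 counts in the others. In bulk samples such as these, fewer cells of a type and less RNA per cell cannot be told apart.

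The RNA of these genes in the high G0/G1 libraries was set against that in the low ones. The groups also stood apart in FSHR, INHBB and other granulosa markers. With this design, G0/G1 content cannot be told apart from such differences. Of the 12 granulosa markers edgeR's quasi-likelihood test called 0 at an adjusted p of 0.05. DESeq2 called 1 higher and 2 lower, beside 5.34% and 5.05% of all genes tested. GJA1 was higher in the high libraries by a factor of 3.20, GJA5 was lower by a factor of 32.8 and GJC1 lower by a factor of 1.66. In each of these 3 genes the groups did not overlap, as in 56.6% of all genes tested. PANX1 overlapped between the groups. GJA3, GJA4 and GJB2 had 0 to 14 counts in a library and were too low to test. By edgeR's quasi-likelihood test none of the 4 tested members passed an adjusted p of 0.05, as was so for all 14352 genes tested (0% called, smallest adjusted p = 0.125). DESeq2 called GJA1, GJA5 and GJC1, and 10.4% of all genes tested. Its call of GJC1 was close to the threshold (adjusted p = 0.0478).

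**Figure D1:**
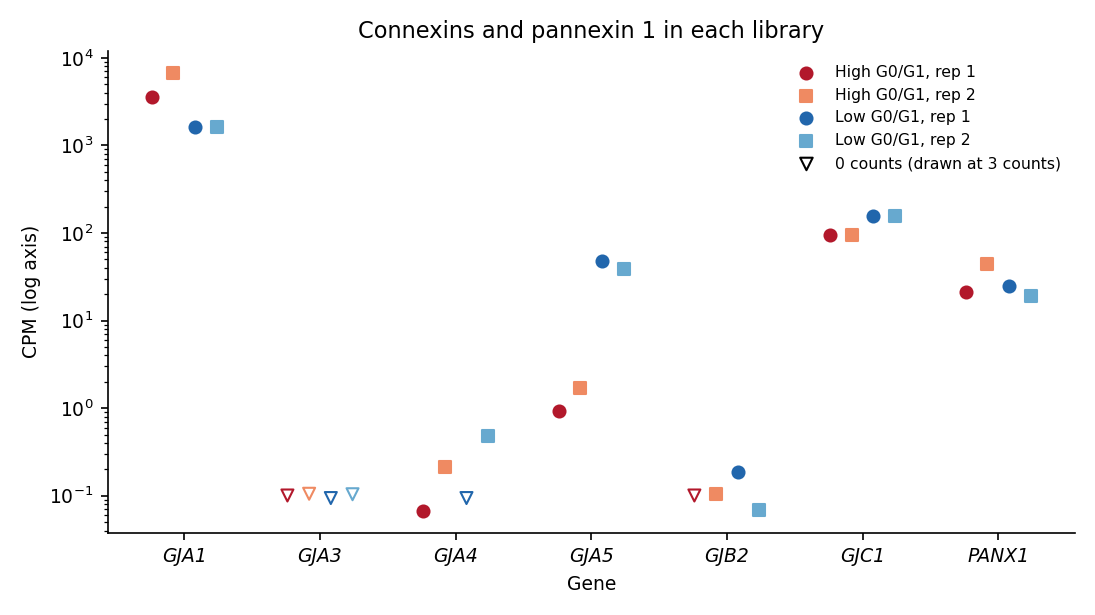
Level of each gene in CPM on a log axis, 1 point per library, with red for high and blue for low G0/G1 and open triangles for a count of 0, drawn at the level of 3 counts. GJA1 lies between 1609 and 6772 CPM, GJA5 has a wide gap between the groups, and GJA3 has no count in any library.

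GJA1 (RefSeq gene 100518636, chromosome 1, 40988818 to 41002129 in Sscrofa11.1), the gene of connexin 43, had 105315 and 193015 counts in the high libraries, or 3531 and 6772 CPM. The low libraries had 51332 and 46575 counts, or 1609 and 1614 CPM. The groups did not overlap, and the high libraries differed from each other by a factor of 1.92 while the low ones differed by a factor of 1.003. The mean of the high libraries was 5151 ± 2292 CPM (SD, n = 2) and that of the low ones 1612 ± 3.50. The log2 fold change was 1.68 ± 0.38 (SE, 95% interval 0.71 to 2.65, edgeR's quasi-likelihood test, adjusted p = 0.167), and 611 of the 14352 genes tested had one at least as large in this direction. DESeq2 gave an adjusted p of 0.00106. High replicate 2 set much of the size: without it the log2 fold change was 1.13, and without high replicate 1 it was 2.06, where edgeR's quasi-likelihood test made the call (adjusted p = 0.0321). DESeq2 lost its call without low replicate 1 (adjusted p = 0.0623) and without low replicate 2 (adjusted p = 0.0840).

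GJA5 (RefSeq gene 100157795, chromosome 4, 99854129 to 99871288) encodes connexin 40, which is best known from the atria of the heart and from the endothelium of arteries. The high libraries had 28 and 48 counts and the low libraries 1508 and 1120, or 0.939 and 1.68 CPM against 47.3 and 38.8. With the exact Poisson interval of each count, the high libraries lay between 0.624 and 2.23 CPM and the low ones between 36.6 and 49.7. The high libraries were both far below the low ones, and these intervals do not meet. Those of the low libraries do not meet each other either, at 44.9 to 49.7 and 36.6 to 41.2 CPM. The log2 fold change was -5.03 ± 0.40 (SE, 95% interval -6.06 to -4.01, adjusted p = 0.125 by edgeR's quasi-likelihood test), the 12th lowest of the 14352, and its unadjusted p was the 5th smallest. DESeq2 called it at an adjusted p of 1.4e-26, and also without each library in turn, at adjusted p values from 3.0e-26 to 1.6e-09. In edgeR's quasi-likelihood test the call was made without high replicate 1 (adjusted p = 0.0168) and with no filter on low counts (adjusted p = 0.0410), and the log2 fold change ranged from -5.51 to -4.68 with 1 library left out.

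Endothelium and theca are other sources of RNA in a follicle, and their markers were read beside GJA5. Its level was 47.3 CPM in low replicate 1 and 38.8 in low replicate 2. The endothelial list was a general one and not one of arteries. The 14 endothelial markers summed to 66.9 and 70.9 CPM in high and 73.0 and 101 in low. Of the 12 tested, 11 overlapped between the groups, while 56.6% of all genes tested did not overlap. TIE1, an endothelial receptor and the most abundant of them in low replicate 1, had 38.7 and 12.1 CPM in high and 56.5 and 22.3 in low. It was the 1 gene of the 14 that was higher in low replicate 1 than in low replicate 2. CDH5, the cadherin of endothelial cells, had 1.04 and 1.16 CPM in high and 0.125 and 6.20 in low, and VWF, the von Willebrand factor, had 6.64 and 4.32 against 1.16 and 22.0. EMCN, the 1 tested marker without overlap, was higher in both high libraries, at 3.62 and 6.42 CPM against 0.408 and 3.40 in low. SOX17 and PLVAP, not tested for their low counts, were lower in both high libraries. SOX17 had 0 and 1 counts in high and 2 and 15 in low, and PLVAP had 0 and 0 against 1 and 33.

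The 8 theca markers went several ways. CYP17A1, the enzyme with which theca cells make androgens, had 0.771 and 1.02 CPM in high and 0.125 and 51.5 in low. INSL3, a peptide hormone of theca cells, lay on the side of GJA5, at 17.6 and 30.0 CPM in high and 75.3 and 260 in low. So did GLI1, not tested for its low counts, at 0.101 and 0.140 CPM against 0.157 and 1.63. PTCH1 lay on the other side, at 35.1 and 56.8 CPM in high and 19.3 and 23.6 in low. CYP11A1, which starts steroid synthesis, had 63.7 and 207 against 110 and 71.3, and NR2F2 had 31.3 and 33.3 against 26.96 and 25.9. Of 6 epithelial markers 4 overlapped between the groups and 2 were lower in both high libraries, beside 29.8% of all genes tested. These 2 were the mucin gene MUC1, at 0.704 and 0.351 CPM in high and 3.01 and 3.71 in low, and CLDN4, at 0.0671 and 0.526 against 0.627 and 1.14. The part of these cells in the GJA5 result was not tested. The 9 leukocyte markers summed to 0.658 to 5.82 CPM. Of 14 oocyte markers 6 had no count in any library, among them ZP2 and ZP4 of the egg coat, and nearly all of their sum of 6.46 to 12.1 CPM was GDF9, an oocyte growth factor, at 6.40 to 11.5 CPM.

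GJC1 (RefSeq gene 100048959, chromosome 12, 18526060 to 18560221), the gene of connexin 45, had 2809 and 2689 counts in high and 4935 and 4560 in low. The levels were 94.2 and 94.3 CPM in high and 155 and 158 CPM in low. High libraries lay below low ones without overlap, and the means were 94.3 ± 0.122 CPM (SD, n = 2) and 156 ± 2.35. The closeness within each group lies within counting error: the exact Poisson interval of high replicate 1 alone was 90.7 to 97.7 CPM. It also depends on the scaling. On unscaled library totals the high libraries stood at 92.4 and 93.7 CPM and the low ones at 151 and 166. The log2 fold change was -0.73 ± 0.19 (SE, 95% interval -1.21 to -0.25, adjusted p = 0.174 by edgeR's quasi-likelihood test). It was the steadiest of the 4, between -0.74 and -0.68 with 1 library left out. DESeq2's adjusted p was 0.0478 with all libraries, and this call was lost whichever library was left out, at adjusted p values of 0.123 and 0.190 without high replicates 1 and 2 and 0.697 and 0.667 without low replicates 1 and 2.

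PANX1 (RefSeq gene 100738603, chromosome 9, 26443425 to 26491010) had 627 and 1261 counts in high and 784 and 557 in low. These are 21.0 and 44.2 CPM in high and 24.6 and 19.3 in low. High replicate 2 stood above the other 3 libraries, and high replicate 1 lay between the low ones. The log2 fold change was 0.57 ± 0.41 (SE, 95% interval -0.47 to 1.61, adjusted p = 0.460 by edgeR's quasi-likelihood test), so an increase of up to 1.61 or a decrease of up to 0.47 on the log2 scale lies within the interval. Without high replicate 2 it was -0.061, and without high replicate 1 it was 1.003 (adjusted p = 0.0935).

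**Figure D2:**
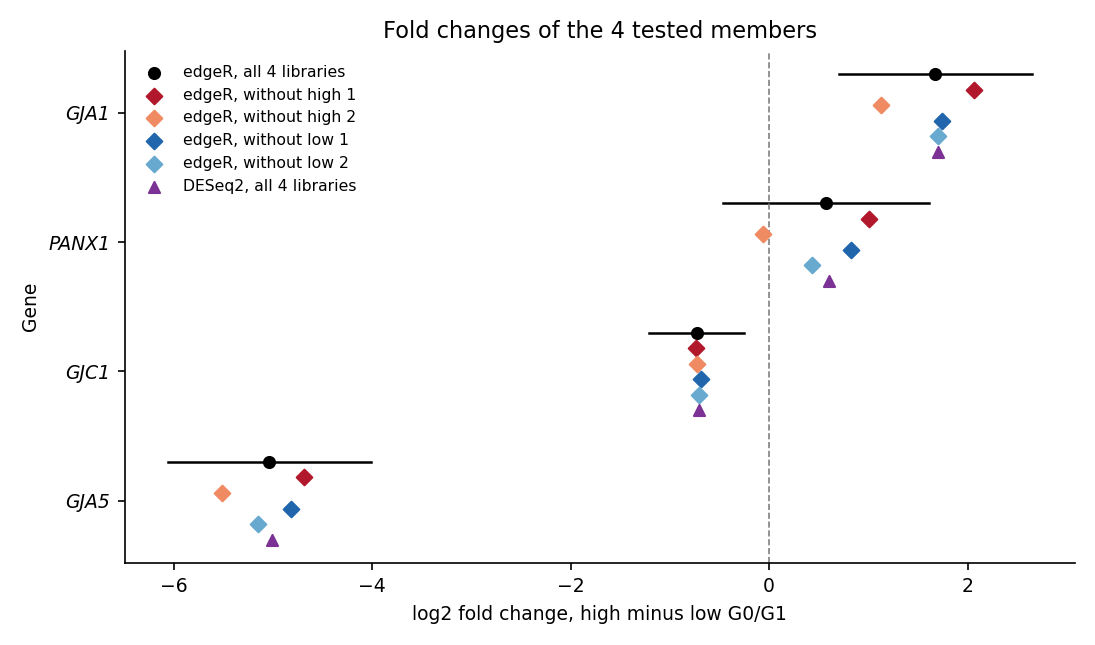
Log2 fold change, high minus low G0/G1, of the 4 tested genes: black points and bars are edgeR's estimate and 95% interval with all 4 libraries, diamonds the estimate without 1 library, and triangles DESeq2's. GJA1 ranges from 1.13 to 2.06 without 1 library, and PANX1 crosses 0 without high replicate 2.

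Counts for the other 3 genes were at the edge of detection. GJA4 (chromosome 6, 91045430 to 91048161), the gene of connexin 37, which in the mouse joins the oocyte to its cumulus cells and is also made in endothelium, had 2 and 6 counts in high and 0 and 14 in low. Its highest level was 0.485 CPM in low replicate 2, with an exact Poisson interval of 0.265 to 0.814, and the exact Poisson upper bound for the 0 counts of low replicate 1 was 0.116. The low libraries differed in CDH5 as well, at 0.125 and 6.20 CPM, and in the smooth muscle actin gene ACTA2, at 18.7 and 147, and the part of these cells in the GJA4 counts was not tested. GJB2 (chromosome 11, 774090 to 781252), the gene of connexin 26, known from the inner ear and from epithelia, had 0 and 3 counts in high and 6 and 2 in low. Its groups overlapped. GJA3 (chromosome 11, 750658 to 751889), the gene of connexin 46, known from the lens, had 0 counts in each library. Differences between the groups in these 3 genes were not detectable at this depth. For GJA4 the low libraries also differed from each other by more than counting error.

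Of the 4 members that passed the filter on low counts, 3 had an unadjusted p under 0.05 in edgeR's quasi-likelihood test: GJA1 higher (9.92% of all genes tested) and GJA5 and GJC1 lower (10.8%), against 20.7% in either direction. The same 3 were called by DESeq2, which called 10.4% of all genes tested, 5.34% higher and 5.05% lower. They also were the 3 whose groups did not overlap, as in 56.6% of all genes tested, 26.8% with the high libraries above and 29.8% with them below. GJA5 passed the filter through its level in the low libraries as well as its counts in the high ones. The median log2 fold change of the 4 was -0.079, against -0.0090 over all genes tested, with 2 above and 2 below 0.

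As shares of all connexin counts, GJA1 took more and both GJC1 and GJA5 less in the high libraries. These shares come from the same counts as the levels above and are no separate result. GJA1 made up most of the sum, so more GJA1 lowers the other shares. GJC1 had 94.2 and 94.3 CPM in the high libraries, yet its share differed between them. Over 20 connexin genes, GJA1 took 97.3% and 98.5% of the counts in high and 88.8% and 89.1% in low. GJC1 took 2.60% and 1.37% in high and 8.54% and 8.72% in low. The share of GJA5 was 0.0259% and 0.0245% in high and 2.61% and 2.14% in low. In each of these shares the groups did not overlap and lay apart by more than the 95% Wilson intervals. These intervals cover counting error only, and libraries of the same group could lie apart by more than them too. That was so for GJA1 and GJC1 in high and for GJA5 in low. A longer transcript takes more reads, so a share does not give the relation between 2 genes within a library. The lengths of all connexin transcripts weight the sum under each share, so length does not fully drop out when shares are compared between libraries. It does drop out when the CPM of a single gene is compared between them.

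The ratio of GJA1 to GJC1 counts was 37.5 and 71.8 in high and 10.4 and 10.2 in low. For GJA1 to GJA5 it was 3761 and 4021 against 34.0 and 41.6. The high libraries were close to each other in this ratio although their GJA1 levels differed by a factor of 1.92. They had only 28 and 48 GJA5 counts, with Wilson intervals of the GJA5 share of 0.0179% to 0.0374% and 0.0185% to 0.0325%. This closeness lies within that counting error. These ratios do not depend on how the libraries are scaled. Summed over all 23 connexin and pannexin genes with a row, the level was 3664 and 6926 CPM in high and 1857 and 1851 in low. For the 3 shares, the 2 ratios and the sum, the two-sided exact permutation p was 0.333 in each case, the smallest that 2 against 2 libraries allow, and adjustment over the 6 leaves it as it is.

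**Figure D3:**
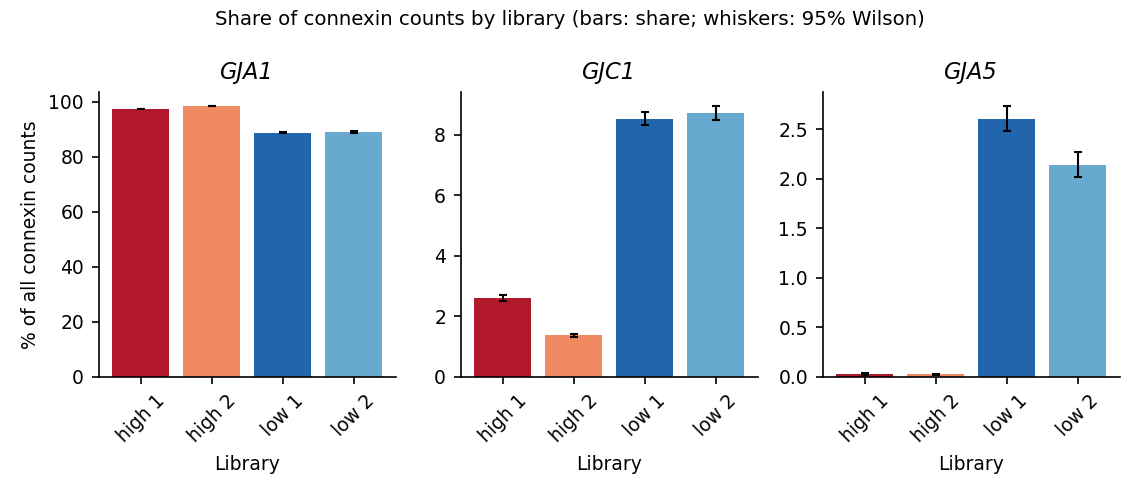
Share of all connexin counts, in percent, taken by GJA1, GJC1 and GJA5 in each library, with 95% Wilson intervals as whiskers and a y axis of its own for each gene. The GJA1 bars of the high libraries stand at 97.3% and 98.5%, those of the low libraries at 88.8% and 89.1%.

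The other 16 genes of the families added little. PANX2 and GJD4 had an average of at least 1 CPM, 5 had no count in any library and 9 had counts below that average. PANX2, a pannexin best known from the nervous system, had 15.6 and 9.61 CPM in high and 19.7 and 18.7 in low, and its log2 fold change was -0.61 ± 0.33 (SE, adjusted p = 0.345 by edgeR's quasi-likelihood test). Its groups did not overlap, and the ratio of PANX1 to PANX2 counts was 4.60 in high replicate 2 against 1.03 to 1.35 in the other 3 libraries. GJD4, the gene of a connexin of skeletal muscle, had 22 and 95 counts in high and 18 and 10 in low, so that 1 library held most of its counts. Its log2 fold change was 2.15 ± 0.91 (SE, adjusted p = 0.264 by edgeR's quasi-likelihood test).

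Genes beside the members were read from the RefSeq table of Sscrofa11.1. GJA3, GJB2 and GJB6 lie side by side on chromosome 11, with at most 6 counts in a library in any of them. ACP6, an acid phosphatase gene 59054 bases from GJA5, had 50.5 and 32.1 CPM in high and 104 and 85.6 in low. Its log2 fold change of -1.20 ± 0.29 (SE, adjusted p = 0.169 by edgeR's quasi-likelihood test) had the sign of that of GJA5 and was smaller. Beside GJA1, TBC1D32, which acts in primary cilia, stood at 15.3 and 19.7 CPM in high against 7.34 and 7.69 in low, and beside GJC1, ADAM11 at 1.84 and 0.912 against 3.79 and 5.37. Both high libraries lay on the same side of the low ones as in the connexin in these 3 genes and in HSF2, beside 26.8% above and 29.8% below over all genes tested. HSF2 lies 808509 bases away on the other side of GJA1 and stood at 64.6 and 80.0 CPM in high and 49.2 and 30.1 in low. The remaining neighbours of GJC1 and PANX1 (HIGD1B, HEPHL1 and IZUMO1R) had at most 6 counts in a library. These genes were chosen for their position. No other gene in that table overlaps a member.

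For each tested member the 3 genes with the most similar profile over the 4 libraries were sought among 11813 genes with an average log2 CPM of at least 1, by the distance between log2 CPM values centred on their mean. With 4 libraries, many genes share any profile, so these are descriptions. Nearest to GJA1 were YPEL5 (distance 0.036), KLF13 (0.083), a Kruppel-like transcription factor, and WNT9A (0.17), a Wnt ligand. YPEL5 had 78.0 and 152 CPM in high and 34.9 and 35.8 in low. It thus shared with GJA1 the gap between the high libraries and the closeness of the low ones. Nearest to GJA5 were ADAMTS8 (0.74), a secreted metalloprotease, CNGA3 (0.88), a subunit of cyclic nucleotide-gated channels, and FAT2 (0.95), a large cadherin. ADAMTS8 stood at 0.101 and 0.246 CPM in high and 5.17 and 8.73 in low.

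The distances were larger for GJA5 than for the other members, whose profiles span a smaller range. Nearest to GJC1 were SNRNP40 (0.046), of the spliceosome, ARMC6 (0.048) and TCOF1 (0.054), which acts in the synthesis of ribosomal RNA. SNRNP40 had 47.0 and 45.1 CPM in high and 75.2 and 76.6 in low. Nearest to PANX1 were PRKD1 (0.055), a protein kinase D, RPS6KA3 (0.086), a ribosomal S6 kinase, and PRSS57 (0.11). PRKD1 had 37.4 and 75.2 CPM in high and 43.9 and 33.8 in low, with high replicate 2 alone above the rest.

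**Figure D4:**
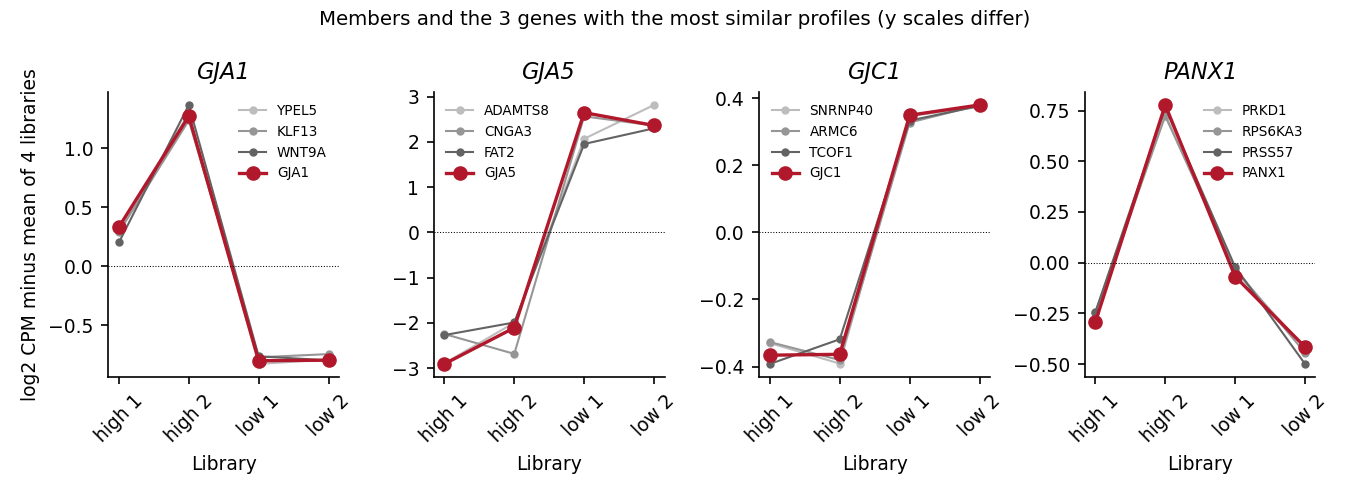
Log2 CPM minus the mean of the 4 libraries for each tested member (red) and the 3 genes nearest to it (grey), with a y axis of its own for each panel; lines join the libraries of 1 gene and show no order. GJA1 and PANX1 share the high point in high replicate 2, while GJC1 and GJA5 form 2 levels by group.

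Connexins work with junction proteins, kinases and the machinery that takes them up, and 3 lists of such genes were counted. Of 16 partners of the junction, 14 were tested, with 10 above and 4 below 0 and a median log2 fold change of 0.21. In edgeR's quasi-likelihood test 0 passed the adjusted threshold and 2 had an unadjusted p under 0.05, both higher, while DESeq2 called 1; over all genes tested these shares were 20.7% and 10.4%. That gene was F11R, the junctional adhesion molecule A, at 10.8 and 83.6 CPM in high and 7.65 and 2.53 in low. Its log2 fold change was 3.21 ± 1.09 (SE), and high replicate 2 held most of it: without that library DESeq2's adjusted p went from 0.0068 to 0.576, and without low replicate 2 it was 0.0779. The catenin gene CTNND1, whose protein p120 holds cadherins at the membrane, had 300 and 312 CPM in high and 166 and 225 in low. TJP1, the gene of the scaffold ZO-1 that binds the tail of connexin 43, had 210 and 272 CPM in high against 181 and 148 in low, and CNST, the gene of consortin, which takes connexins to the membrane, had 24.9 and 19.7 against 16.2 and 15.7. The log2 fold changes of the 3 were 0.65 ± 0.24, 0.55 ± 0.24 and 0.48 ± 0.26 (SE), with adjusted p values by edgeR's quasi-likelihood test of 0.224, 0.275 and 0.336.

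Of the cadherins and other catenins on the list, CDH2, CDH1 and CTNNB1 overlapped between the groups and CTNNA1 did not. CDH2, the gene of N-cadherin, had 700 and 760 CPM in high and 704 and 616 in low, and CTNNB1, the gene of beta-catenin, had 700 and 686 against 709 and 671. CDH1, the gene of E-cadherin, had 0.972 and 6.03 CPM against 2.54 and 3.74. CTNNA1, the gene of alpha-catenin, had 375 and 567 CPM against 318 and 365, with an adjusted p of 0.391 by edgeR's quasi-likelihood test. For CTNNB1 the log2 fold change was 0.0065 ± 0.21 (SE). These 4 genes were chosen after their values were seen.

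Among 21 tested kinases, phosphatases and their partners that act on connexins, 7 were higher and 14 lower, with a median log2 fold change of -0.23. Of these 0 passed edgeR's adjusted threshold, 7 had an unadjusted p under 0.05, 2 of them higher and 5 lower, and DESeq2's calls were 2, both lower, beside 20.7% and 10.4% of all genes tested. MAPK7, the gene of the kinase ERK5, which phosphorylates connexin 43, had 44.7 and 30.0 CPM in high and 81.3 and 76.6 in low. PRKCD, a protein kinase C, had 8.28 and 7.86 CPM in high and 14.2 and 20.0 in low. These are the 2 genes that DESeq2 called, at adjusted p values of 0.0233 and 0.0477. DESeq2 called neither without high replicate 2, low replicate 1 or low replicate 2 (adjusted p from 0.163 to 0.751), and without high replicate 1 it called MAPK7 (adjusted p = 0.0012) and not PRKCD (adjusted p = 0.143). Their log2 fold changes in edgeR were -1.08 ± 0.26 and -1.08 ± 0.32 (SE). The phosphatase gene PTPN1 stood on the other side, with 47.1 and 60.1 CPM in high and 36.6 and 27.3 in low, and AKT1 had 197 and 204 against 297 and 290. SRC, whose kinase closes connexin 43 channels, overlapped between the groups at 61.4 and 44.1 CPM against 58.4 and 55.9, and was chosen after its values were seen.

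All 16 genes of connexin trafficking and turnover were tested, with 9 higher, 7 lower and a median log2 fold change of 0.031. Of these 0 passed edgeR's adjusted threshold, 1 in each direction reached an unadjusted p under 0.05, and DESeq2's single call was higher, beside 20.7% and 10.4% of all genes tested. That gene was SQSTM1, whose product p62 delivers cargo to autophagosomes, at 403 and 651 CPM in high and 258 and 214 in low. Its log2 fold change was 1.16 ± 0.31 (SE, DESeq2 adjusted p = 0.0187), and without high replicate 2, low replicate 1 or low replicate 2 DESeq2 made no call (adjusted p from 0.128 to 0.450). UBQLN4, a ubiquilin that binds connexin 43 on its way to the proteasome, had 63.3 and 51.2 CPM in high and 89.0 and 95.6 in low. The endocytic genes DNM2 and AP2M1 had 101 and 83.4 against 131 and 124 CPM, and 251 and 265 against 300 and 351. Both high libraries were below both low ones in these 3 genes, with adjusted p values of 0.195, 0.282 and 0.410 by edgeR's quasi-likelihood test. In the list of 16, 4 genes lay below and 3 above without overlap, beside 29.8% and 26.8% of all genes tested. NEDD4, a ubiquitin ligase of connexin 43, overlapped at 9.52 and 7.65 against 8.81 and 7.001 CPM and was chosen after its values were seen.

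**Figure D5:**
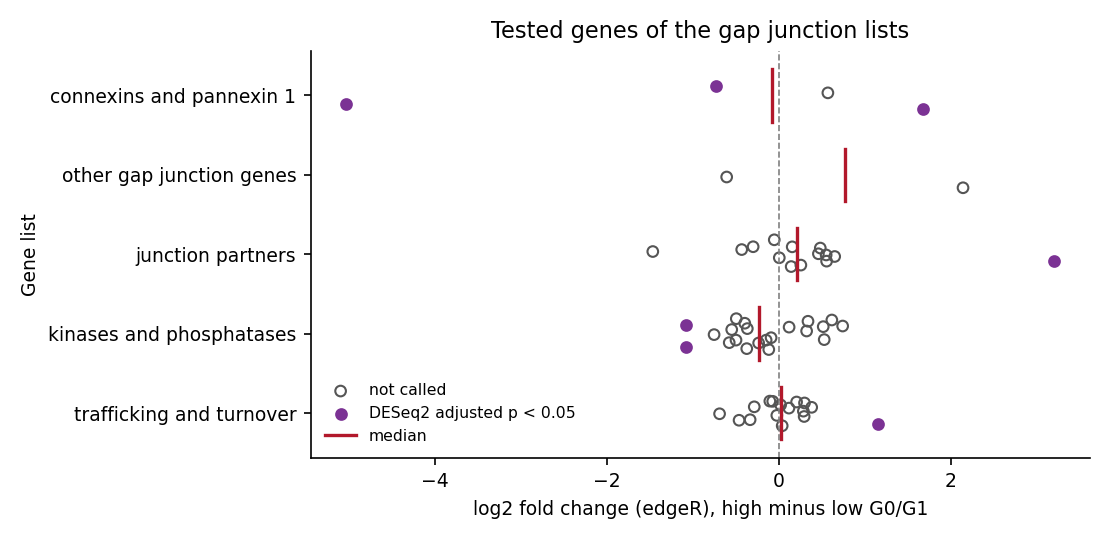
Log2 fold change in edgeR, high minus low G0/G1, of each tested gene of the connexin and pannexin lists and of the 3 pathway lists, with filled points where DESeq2's adjusted p was under 0.05 and a red bar at the median. The medians of the 3 pathway lists are 0.21, -0.23 and 0.031, and GJA5 lies at -5.03.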

How the data were processed

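RNA was extracted with Trizol and sequenced on Illumina libraries, per the labels' protocols. The authors deposited whole-number read counts per gene symbol, in a column for each library. The submitters' processing notes name HISAT2 and the build Sscrofa11.1; counter, annotation and strand setting: not given in the sources used here. Of 29884 rows, 29862 match a RefSeq symbol of Sscrofa11.1, which gave coordinates. Replicate numbers follow the order of listing.

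All 4 libraries were fitted with edgeR 4.0.16 in R 4.3.3 (filterByExpr, minimum count 10 and minimum total 15, TMM, glmQLFit and glmQLFTest, no covariate), with Benjamini-Hochberg adjustment over 14352 genes and a threshold of 0.05. The common coefficient of variation was 0.372. SEs were taken from the F statistic (size of the log2 fold change divided by its root). Log2 CPM used a prior count of 2. DESeq2 1.42.0 and limma-voom 3.58.1 ran on the same genes. Alternatives were another scaling, no filter and each library left out.

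Members and lists were chosen with earlier results of these data known. All 7 members are named, family genes at 1 CPM or more, up to 4 genes per list by smallest p, and the 3 nearest profiles; other genes are marked or are markers or neighbours. Of the listed genes 3 without a row under their symbol were not analysed here, and CCN3 was read under its older symbol NOV. Some genes are not reported here, and no sequences were used here.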

Additional observations from a re-analysis of the deposited data

How the results depend on the processing

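The labels state no pairing or batch, so the main fit held no term for either. With a term for the letter W that the names of high replicate 2 and low replicate 2 share, edgeR called 0 genes, and the log2 fold changes of GJA1, GJA5, GJC1 and PANX1 were 1.601, -5.07, -0.73 and 0.49. Where edgeR's quasi-likelihood test with all 4 libraries called 0 genes higher and 0 lower (2977 at an unadjusted p under 0.05), DESeq2 called 767 and 725, and no filter on low counts gave 2 and 3; limma-voom and DESeq2's size factors in edgeR gave 0. With 1 library left out the counts ranged from 0 to 363 higher and from 0 to 591 lower, the largest without high replicate 1. Of the members, DESeq2 called 1 higher and 2 lower, no filter gave 1 lower, and with 1 library left out 0 to 1 were called in either direction, by edgeR only without high replicate 1; DESeq2 without 1 library called 0 to 1 higher and 1 lower each time. Of the pathway genes, DESeq2 called 2 higher and 2 lower, edgeR without 1 library 0 to 1 in each direction, and DESeq2 without 1 library 0 to 2 higher and 0 to 3 lower. The signs of GJA1, GJA5 and GJC1 held in all 13 alternatives. On unscaled library totals the mean of high minus that of low moved for GJC1, from -62.1 to -65.6 CPM. PANX1 turned without high replicate 2, at -0.061 in edgeR (range -0.061 to 1.003 without 1 library) and -0.040 in DESeq2; the cause was not tested. Depth limits GJA3, GJA4 and GJB2. The term for the letter and the alternatives that leave out a library in DESeq2 were chosen after seeing the data.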
